A study of Mus musculus with 6 samples.

Results

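The genes described are those of the MHC class II pathway: the classical chains H2-Aa, H2-Ab1 and H2-Eb1, the invariant chain Cd74, the transactivator Ciita, and the peptide-editing chains H2-DMa, H2-DMb1, H2-Oa and H2-Ob. They were chosen by name, with the array feature (probe set) of highest mean signal standing for each gene, and 8 of the 9 were measured among 19938 genes in all. H2-DMb1 was left out because its only probe set is assigned to several genes. Expression was measured on 6 Affymetrix arrays of mouse cells, 2 for each of 3 populations. HSC were bone marrow cells transduced with NUP98-HOXB4, a fusion protein, and expanded in culture with IL6 and SCF. ProT were such cells grown with IL7 and the Notch1 ligand DLL4, so they carry NUP98-HOXB4 as well. DP were double positive thymocytes that formed after ProT cells had been injected into a Rag2-/- mouse, and they too descend from transduced cells. A Rag2-/- host makes no double positive cells of its own but keeps its thymic stroma and its myeloid cells. The labels give no age, strain or number of animals, and do not say whether replicates came from separate cultures or mice, so the p-values rest on a spread that may be technical only.

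MHC class II molecules present peptides from endosomes to CD4+ T cells. An alpha and a beta chain pair in the endoplasmic reticulum with the invariant chain, which blocks the groove until proteases remove it. H2-DM then exchanges the remaining invariant chain fragment for peptide, and H2-O restrains H2-DM. In mice these genes are known from B cells, dendritic cells, activated macrophages and thymic epithelium. CIITA does not bind DNA itself but joins the RFX and NF-Y complexes at paired promoter elements, the X and Y boxes, of the class II, H2-DM, H2-O and invariant chain genes.

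Promoter sequences of some of these genes are shown for their matches to the X and Y box cores. RefSeq windows of 300 bases around the start site (build GRCm38.p6) were matched by symbol for 6 of the 9 genes, with 2 start sites for H2-DMa. They were searched on both strands for AGCAAC, the core of the X box, followed after 20 to 40 bases by ATTGG, the core of the Y box read on the other strand as CCAAT. Of 32851 promoters in the same table, 0.338% held this pair, 14.8% held AGCAAC alone and 37.4% held CCAAT alone. H2-Eb1 (chr17:34305765-34305822, plus strand), H2-Oa (chr17:34092292-34092350, plus strand) and H2-Ob (chr17:34238807-34238862, plus strand) held the pair, and so did H2-Eb2 (chr17:34325532-34325589, plus strand), a further class II beta chain gene. H2-Aa (chr17:34287857-34287914, minus strand) did not match AGCAAC, but held the shorter GCAAC with ATTGG at the same spacing. The shorter pair was chosen after the sequences were seen and is found in 1.01% of promoters. No pair of either kind was found in these windows of H2-DMa or H2-DMb1. The stretches are printed 5′ to 3′ on the gene's strand, with the X core and then the Y core in capitals.
H2-Aa: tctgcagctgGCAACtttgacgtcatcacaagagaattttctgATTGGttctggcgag
H2-Eb1: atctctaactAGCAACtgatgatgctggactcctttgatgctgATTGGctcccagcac
H2-Eb2: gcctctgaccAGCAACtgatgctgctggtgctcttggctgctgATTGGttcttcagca
H2-Oa: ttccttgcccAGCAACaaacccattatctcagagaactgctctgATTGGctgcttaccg
H2-Ob: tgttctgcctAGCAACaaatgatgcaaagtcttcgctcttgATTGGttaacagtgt
Between the cores lay 28 bases in H2-Aa and H2-Oa, 27 in H2-Eb1 and H2-Eb2, and 25 in H2-Ob. Counted from the start site, the X core began at position -81 in H2-Aa, -92 in H2-Eb1, -77 in H2-Oa, -88 in H2-Ob and -133 in H2-Eb2. A match is a description of the letters and does not show that a factor was bound.

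ProT and DP matched their labels at most of their defining markers, while the markers of HSC were mixed. Of 9 measured early T lineage genes, all were called higher in ProT than in HSC, and Cd4 and Cd8a reached log2 signals of at least 12.84 on both DP arrays, against at most 6.42 on the ProT arrays. Of 10 measured stem and progenitor genes, 4 were called lower and 1 higher in ProT than in HSC, beside 6.90% and 7.85% of all genes. The higher one, the progenitor gene Kit, averaged 11.25 in HSC, 11.97 in ProT and 8.71 in DP. Procr, a marker of stem cells, was low in all 3 populations (5.95 to 6.13 over the group means). Of 11 macrophage and monocyte genes 6 were low in HSC, but Lyz2 averaged 12.71 and Csf1r 10.85 there. A mean is called low here if it was under 7.17, the median over all genes and arrays, because such signals were not shown to exceed background. Replicate arrays correlated at 0.991 in HSC, 0.995 in ProT and 0.997 in DP, and arrays of different populations at 0.933 to 0.973. Signals are log2 values, errors are the SD over 2 arrays for means and the standard error from the linear model (limma) for changes, and a gene is called at an adjusted p below 0.05 (Benjamini-Hochberg over all 19938 genes). Folds against a low mean are given as "at least". In bulk RNA, fewer cells of a type and less RNA per cell cannot be told apart.

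The class II genes fell into sets with different courses. The classical chains and the invariant chain were low or intermediate in HSC and high in both T lineage populations. The editing chains H2-DMa, H2-Oa and H2-Ob were already high in HSC, and each of them was lower in DP than in ProT. Ciita stayed near or below the median of all genes throughout. These courses are seen in the plot of signal by array.

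**Figure D1:**
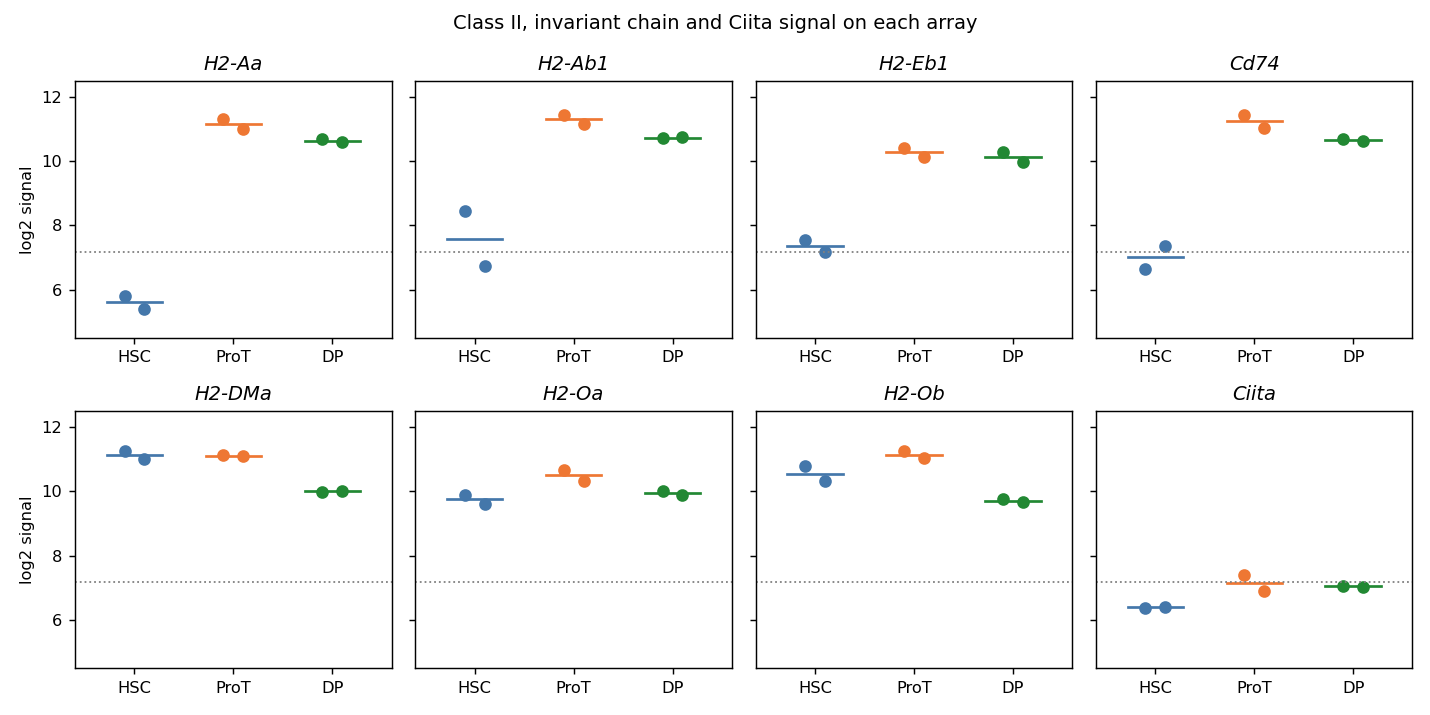
Log2 signal (y axis) of the 8 measured genes on each array (points) in HSC, ProT and DP, with group means as bars and the median of all gene values, 7.17, as a dotted line. H2-Aa, H2-Ab1, H2-Eb1 and Cd74 sit above 9.9 on all ProT and DP arrays and at or below 8.45 on the HSC arrays, while H2-DMa, H2-Oa and H2-Ob are above 9.6 on every array.

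H2-Aa, the alpha chain of the I-A molecule, had log2 signals of 5.80 and 5.40 in HSC, 11.33 and 11.01 in ProT, and 10.68 and 10.59 in DP. Every ProT and DP array was far above both HSC arrays, and the ProT arrays lay above the DP arrays. ProT exceeded HSC at least 47.4-fold, a log2 change of 5.57 ± 0.17 (limma adjusted p = 1.94e-05), which was the 20th largest rise of all genes in that comparison. In ProT 93.3% of genes had a lower mean signal than H2-Aa, and in HSC 25.2% did. Its beta chain partner H2-Ab1 had 8.45 and 6.72 in HSC, 11.45 and 11.17 in ProT, and 10.73 and 10.75 in DP. The HSC arrays disagreed more on H2-Ab1 than on any other gene of the set (SD 1.22), so its rise of 13.2-fold in ProT against HSC carries a wide error (3.72 ± 0.52, adjusted p = 0.00649). Without HSC replicate 1 that log2 change was 4.59, and without HSC replicate 2 it was 2.86. Each of these fits holds 1 HSC array, so its error leaves out the disagreement between the HSC arrays.

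H2-Eb1, the beta chain of the I-E molecule, had 7.56 and 7.17 in HSC, 10.42 and 10.13 in ProT, and 10.29 and 9.98 in DP. The T lineage arrays overlapped with each other and lay well above HSC, with ProT 7.52-fold higher than HSC (2.91 ± 0.18, adjusted p = 0.000288). Its alpha partner stayed low. H2-Ea, annotated as a transcribed pseudogene in the RefSeq table, averaged 5.29 in HSC, 5.25 in ProT and 5.23 in DP, with ProT against HSC at -0.04 ± 0.07 (adjusted p = 0.806). In H-2b mouse strains such as C57BL/6 the I-E alpha gene is known to be inactive, and the labels do not state the strain used. H2-Eb2, the neighbouring beta chain gene, rose at least 2.35-fold in ProT against HSC (1.23 ± 0.11, adjusted p = 0.00141), to a mean of 7.18, and differed by 0.00 ± 0.11 in DP against ProT.

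Cd74, the invariant chain, had 6.64 and 7.35 in HSC, 11.43 and 11.05 in ProT, and 10.69 and 10.64 in DP. The pattern was that of the classical chains, except that HSC replicate 2 was the higher HSC array for Cd74 and the lower one for H2-Aa, H2-Ab1 and H2-Eb1. ProT exceeded HSC at least 19.0-fold (4.24 ± 0.25, adjusted p = 0.000218), and DP exceeded HSC at least 12.7-fold (3.67 ± 0.25, adjusted p = 0.000153).

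Ciita, the coactivator on which class II transcription depends, had 6.37 and 6.41 in HSC, 7.41 and 6.90 in ProT, and 7.05 and 7.03 in DP. Both later populations lay above both HSC arrays, but all group means were low, so no fold is given. The log2 change was 0.76 ± 0.16 in ProT against HSC (adjusted p = 0.0315) and 0.65 ± 0.16 in DP against HSC (adjusted p = 0.0261). The ProT call was lost when any 1 of the HSC or DP arrays was left out (adjusted p between 0.0716 and 0.102), and the DP call was lost without either HSC array (0.0766 and 0.0667) or either DP array (0.133 and 0.134).

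H2-DMa, the alpha chain of the peptide editor, had 11.27 and 11.02 in HSC, 11.14 and 11.09 in ProT, and 9.98 and 10.01 in DP. HSC and ProT overlapped, with a log2 difference of -0.03 ± 0.10 (adjusted p = 0.925, 95% interval -0.28 to 0.22), whose sign turned to 0.01 after quantile normalization. Both DP arrays were below all others, 2.17-fold lower than ProT (-1.12 ± 0.10, adjusted p = 0.000619). H2-Oa, the alpha chain of the H2-DM inhibitor, had 9.88 and 9.62 in HSC, 10.66 and 10.34 in ProT, and 10.00 and 9.88 in DP. It rose 1.68-fold in ProT against HSC (0.75 ± 0.14, adjusted p = 0.0211) and fell 1.48-fold in DP against ProT (-0.56 ± 0.14, adjusted p = 0.0297), while DP and HSC overlapped. H2-Oa was the only measured gene of the set called in opposite directions at both steps, as 4.17% of all genes were that were highest in ProT. Its rise was lost without HSC replicate 2 (adjusted p = 0.0698), without ProT replicate 1 (0.0804) or without either DP array (0.071). Its fall was lost without ProT replicate 1 (0.118) or either DP array (0.106 and 0.178), and after quantile normalization (0.0576) or median centring (0.0511).

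H2-Ob, the beta chain of the inhibitor, had 10.78 and 10.32 in HSC, 11.26 and 11.04 in ProT, and 9.75 and 9.68 in DP. The 3 populations did not overlap, with ProT highest and DP lowest. DP was 2.70-fold below ProT (-1.43 ± 0.17, adjusted p = 0.00156) and 1.79-fold below HSC (-0.84 ± 0.17, adjusted p = 0.0107), a call that was lost without either DP array (0.0679 and 0.0867). ProT against HSC gave 0.60 ± 0.17 and did not pass (adjusted p = 0.0709, 95% interval 0.19 to 1.01). It passed without HSC replicate 1 (0.83, adjusted p = 0.00879), with the filter on dim genes (adjusted p = 0.0482) and with the replicate number as a block (adjusted p = 0.0332).

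Counted over the 8 measured genes, ProT against HSC gave 6 called higher and 0 lower by limma (7 and 0 at an unadjusted p below 0.05), when 7.85% of all genes were called higher and 6.90% lower in that comparison. The median log2 change of the 8 was 1.84, against -0.008 for all genes tested. With only the ProT and HSC arrays in the fit, the count was 4, the classical chains and Cd74, because Ciita and H2-Oa did not pass (adjusted p = 0.102 and 0.071). DP against ProT gave 3 lower (H2-DMa, H2-Oa and H2-Ob) and 0 higher (4 and 0 at an unadjusted p below 0.05), when 18.1% of all genes were called lower and 14.5% higher, with a median of -0.56 against 0.018 for all genes. Of all calls 44.6% were higher in DP against ProT and 53.2% in ProT against HSC, and after centring each array on its median these shares were 60.2% and 42.0%, while the medians of the arrays differ by -0.12 and 0.08. DP against HSC gave 5 higher (the classical chains, Cd74 and Ciita) and 2 lower (H2-DMa and H2-Ob), when 16.0% of all genes were called higher and 18.8% lower. The median of that comparison was 1.71, against 0.019 for all genes. It shares its arrays with the other comparisons.

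From ProT to DP the classical genes moved little compared with their rise. The log2 difference of DP against ProT was -0.53 ± 0.17 for H2-Aa (adjusted p = 0.0599, 0.0177 with the replicate number as a block), -0.57 ± 0.52 for H2-Ab1 (adjusted p = 0.489), -0.58 ± 0.25 for Cd74 (adjusted p = 0.137) and -0.14 ± 0.18 for H2-Eb1 (adjusted p = 0.631). The DP arrays of H2-Aa, H2-Ab1 and Cd74 nevertheless lay below both ProT arrays, and those of H2-Eb1 overlapped with ProT. For Ciita the difference was -0.11 ± 0.16 (adjusted p = 0.685), with a positive sign after median centring (0.01). The spread between the HSC arrays enters these errors through the shared fit. With only the ProT and DP arrays, or without either HSC array, H2-Aa, H2-Ab1 and Cd74 passed as well (adjusted p = 0.0242, 0.0137 and 0.0252), which made 6 genes lower in place of 3. The plot of log2 changes sets the 3 comparisons side by side.

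**Figure D2:**
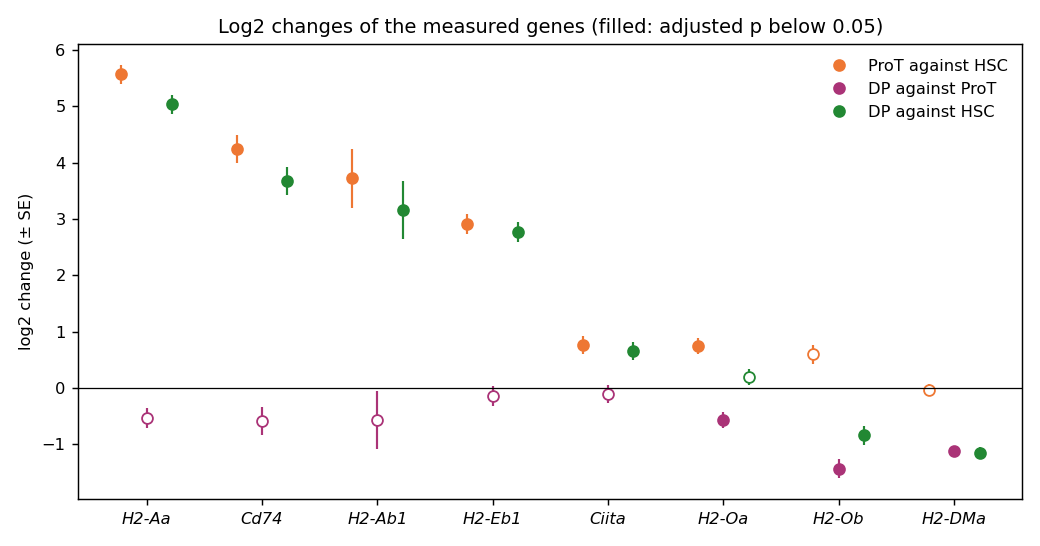
Log2 change (y axis, ± SE from limma) of each measured gene in ProT against HSC, DP against ProT and DP against HSC, with filled points for an adjusted p below 0.05 and open points for the others. H2-Aa, Cd74, H2-Ab1 and H2-Eb1 are between 2.77 and 5.57 in both comparisons against HSC, and the points for DP against ProT lie between -1.43 and -0.11.

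Of the 4 genes of the set with the largest rises, 3 are neighbours on chromosome 17 and Cd74 lies on chromosome 18. In the order of the RefSeq table, chromosome 17 carries H2-Oa, Brd2, H2-DMa, H2-DMb2, H2-DMb1, Psmb9, Tap1, Psmb8, Tap2, H2-Ob, a non-coding RNA gene, H2-Ab1, H2-Aa, H2-Eb1, H2-Eb2 and H2-Ea. H2-Ab1, H2-Aa, H2-Eb1 and H2-Eb2 lie side by side and were all called higher in ProT than in HSC, by 1.23 to 5.57 on the log2 scale. On the H2-Oa side of H2-Ab1, 8 genes were measured and changed by -0.18 to 0.75, and only H2-Oa among them was called. Psmb9, Tap1, Psmb8 and Tap2, which serve class I presentation and lie between H2-DMb1 and H2-Ob, gave 0.16, -0.18, 0.39 and -0.03 (adjusted p between 0.356 and 0.868), where the last 4 values are log2 changes of ProT against HSC. For the classical chains position and gene function cannot be told apart, since these genes lie together. Cd74, on another chromosome, rose by 4.24, and H2-Ob, the nearest measured gene on the H2-Oa side of H2-Ab1, changed by 0.60. The part of position was not tested.

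**Figure D3:**
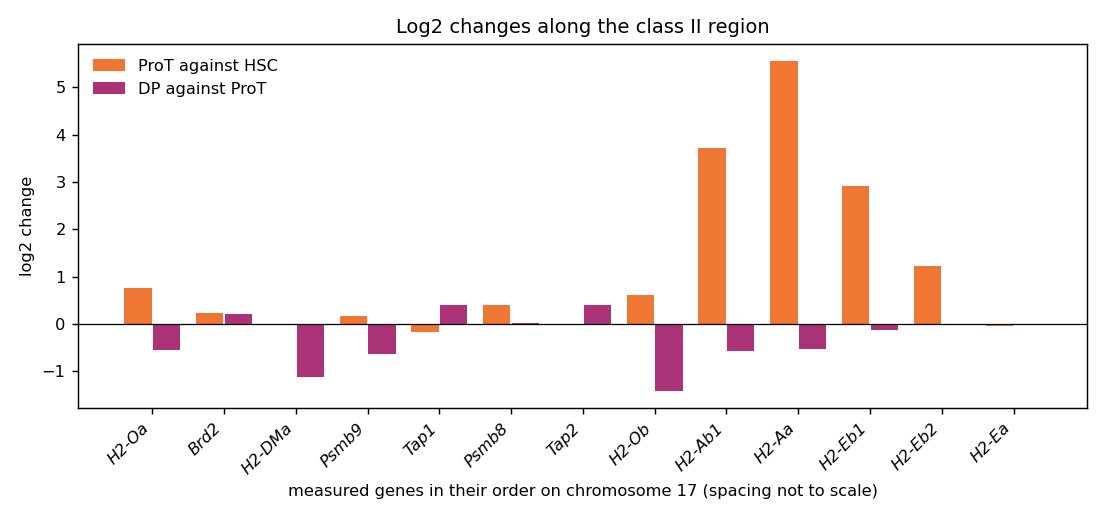
Log2 change (y axis) in ProT against HSC and in DP against ProT for the 13 measured genes of the class II region, in their order on chromosome 17 and not to scale. In ProT against HSC the bars reach 2.91 to 5.57 at H2-Ab1, H2-Aa and H2-Eb1, while the bars for DP against ProT are lowest at H2-Ob (-1.43) and H2-DMa (-1.12).

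Among the genes with a promoter window, the pair printed above was found beside both large and small rises. No window was matched for H2-Ab1, Cd74 or Ciita, so whether the pair goes with these courses was not tested. The pair stands in H2-Eb1, which rose 7.52-fold in ProT against HSC, and in H2-Eb2, which changed by 1.23 on the log2 scale. It also stands in H2-Oa and H2-Ob, whose log2 changes at that step were 0.75 and 0.60. H2-DMa, without the pair in either window, changed by -0.03. H2-Aa, the gene with the largest rise of the set, matched with the shorter X core alone.

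The factors that bind or act on class II promoters changed in both directions. Of 13 measured genes on this list, 2 were called higher and 2 lower in ProT than in HSC. Of all genes 7.85% were called higher and 6.90% lower. The interferon regulatory factors Irf4 (1.51 ± 0.16, from a low mean in HSC) and Irf1 (1.07 ± 0.12) rose. Irf8 (-1.24 ± 0.09) and Spi1, which encodes the myeloid and B cell factor PU.1 (-1.01 ± 0.22), fell. Prdm1, a repressor of Ciita in plasma cells, gave 0.72 ± 0.18 between low means (limma adjusted p = 0.0509), and Creb1, a factor of the X box, -0.50 ± 0.19. The RFX subunits Rfx5, Rfxap and Rfxank were between 8.57 and 10.13 in all group means and changed by -0.20, 0.09 and 0.39 in ProT against HSC, none of them called. In DP against ProT 4 rose and 3 fell, when 14.5% of all genes were called higher and 18.1% lower. Creb1 (1.29 ± 0.19), Nfyb, an NF-Y subunit (0.94 ± 0.14), Rfxank (0.49 ± 0.10) and Nfyc (0.28 ± 0.07) rose. Spi1 (-3.42 ± 0.22), Irf1 (-0.86 ± 0.12) and Nfya (-0.33 ± 0.07) fell. Prdm1 gave -0.60 ± 0.18 (between low means) and Irf4 -0.33 ± 0.16 (to a low mean in DP), neither called. The median log2 change of the list was -0.02 in ProT against HSC and -0.09 in DP against ProT.

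Genes of endosomal processing and class II turnover changed in both directions. Of 14 measured, 2 were higher and 5 lower in ProT than in HSC, with a median of -0.01. The shares over all genes were 7.85% higher and 6.90% lower. Ctsh (-1.50 ± 0.21), Ctsz (-0.95 ± 0.12), Ctsb (-0.90 ± 0.11) and Ctss (-0.84 ± 0.20), all cathepsins, fell, and so did Marchf1, a ubiquitin ligase of class II (-0.65 ± 0.09, between low means). Marchf8, a related ligase that takes class II from the cell surface (0.47 ± 0.09, adjusted p = 0.0243), and Cd83, which opposes class II turnover (0.56 ± 0.13, adjusted p = 0.0441, between low means), rose. Ctss, which trims the invariant chain in B cells and dendritic cells, fell to 8.51 in ProT, against 9.35 in HSC (adjusted p = 0.041). Not called were Napsa, an aspartic protease (0.46 ± 0.16), and Ifi30, a thiol reductase of the endosome (0.30 ± 0.10). In DP against ProT, 3 were higher and 4 lower, with a median of -0.03, beside 14.5% and 18.1% of all genes. Ctsl, which trims the invariant chain in thymic cortical epithelium, rose 2.78-fold (1.47 ± 0.08, adjusted p = 0.000116) and Ctsh rose at least 2.49-fold. Napsa fell 16.5-fold (-4.04 ± 0.16), Ifi30 2.03-fold (-1.02 ± 0.10) and Marchf8 at least 4.71-fold (-2.24 ± 0.09). Cd83 rose at least 2.04-fold to a mean of 7.95. Ctsb (0.23 ± 0.11) and Marchf1 (0.24 ± 0.09) were not called.

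**Figure D4:**
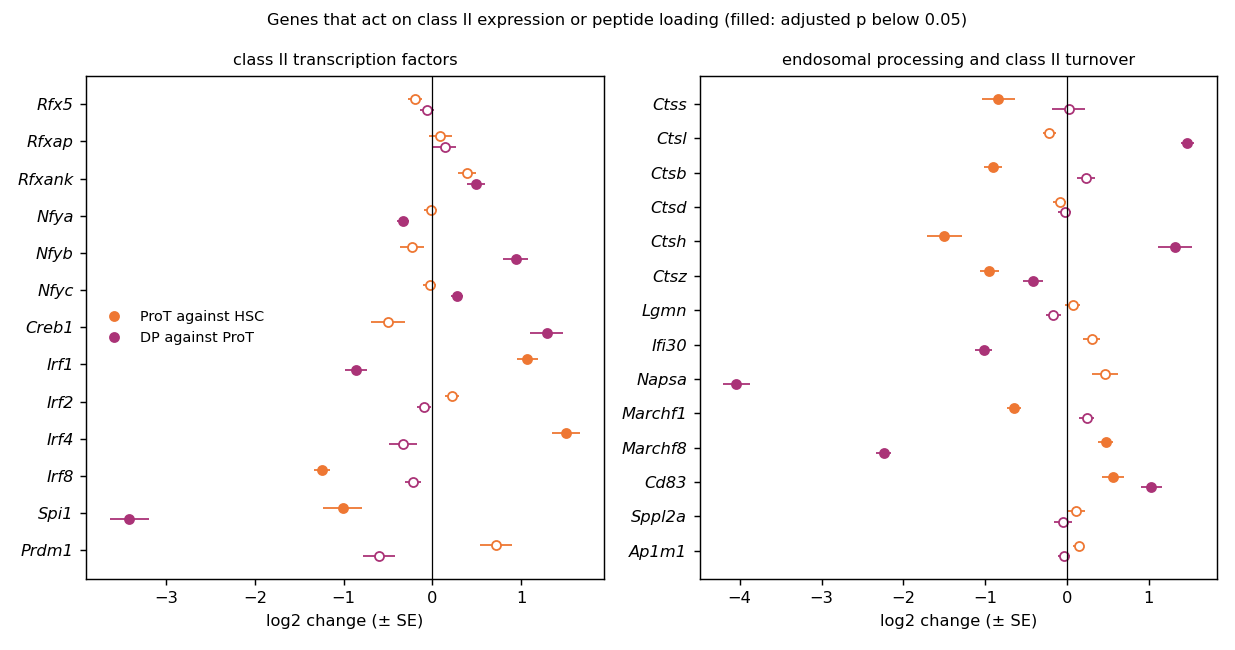
Log2 change (x axis, ± SE from limma) of 13 transcription factor genes and 14 processing and turnover genes in ProT against HSC and DP against ProT, filled where the adjusted p was below 0.05. Changes go both ways in each panel, and the most negative points are Napsa (-4.04) and Spi1 (-3.42) in DP against ProT.

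In ProT the counts of called class I presentation genes were near the shares over all genes. In ProT against HSC 7.85% of all genes were called higher and 6.90% lower, and in DP against ProT 14.5% and 18.1%. All counts of this paragraph stand beside these shares. Of 10 measured class I genes, limma called 0 higher and 1 lower in ProT than in HSC (2 and 2 at an unadjusted p below 0.05). Their median log2 change was 0.07. The lower one was the chaperone gene Calr (-0.52 ± 0.09), and Psmb10, an immunoproteasome subunit, gave 0.72 ± 0.22 (adjusted p = 0.0889). In DP against ProT 3 rose and 4 fell. Among them Nlrc5, the class I counterpart of Ciita, rose 1.72-fold (0.78 ± 0.09, adjusted p = 0.0013), B2m rose 1.21-fold, and Psmb10 (-0.78 ± 0.22), Tapbp (-0.75 ± 0.10) and Calr (-0.67 ± 0.09) fell. Of 11 measured genes of the interferon gamma response, 3 rose and 1 fell in ProT against HSC. Socs1, a feedback inhibitor that other cytokines induce too, rose 5.26-fold (2.40 ± 0.08), Ifngr2, a receptor chain, fell 1.54-fold (-0.62 ± 0.08), and Ifng (0.49 ± 0.10) and the GTPase gene Iigp1 (0.45 ± 0.11) rose between low means. In DP against ProT 5 rose and 2 fell, with Cxcl9 at 1.48 ± 0.18, Iigp1 at 1.45 ± 0.11 (between low means), Gbp3 at -1.06 ± 0.12 and Ifngr1 at 1.05 ± 0.18. Of the 6 co-stimulatory genes of antigen-presenting cells, 1 rose (Pdcd1lg2, 0.63 ± 0.12, between low means) and 1 fell (Cd274, -0.52 ± 0.11) in ProT against HSC. Cd80 gave 0.00 ± 0.48 there, with HSC arrays at 6.86 and 8.45.

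Markers of cell types that carry class II moved along with the class II genes in some cases, and their part in the results was not tested. In ProT against HSC, 5 of 10 conventional dendritic cell markers rose and 0 fell (also 5 and 0 at an unadjusted p below 0.05), beside 7.85% and 6.90% of all genes. The 5 were Itgax, the CD11c integrin (3.22 ± 0.11), the chemokine receptor Ccr7 (1.84 ± 0.10), Fscn1 (1.11 ± 0.17), Batf3 (0.85 ± 0.20) and Clec10a (0.75 ± 0.12, between low means). The summed linear signal of the list was 3569 to 3706 in ProT and 1695 to 2634 in HSC. Its largest term in both was Flt3, which averaged 10.69 in ProT and 10.40 in HSC and was not called. Clec9a, Xcr1 and Cd209a, which mark dendritic cell subsets, had low means in all 3 populations, and so did Zbtb46 of the same list. Of 7 measured markers of plasmacytoid dendritic cells, 2 rose (Spib, 2.34 ± 0.20, and Cox6a2) and 2 fell in ProT, and the summed signal was 2760 to 2990 in ProT and 2893 to 3016 in HSC. Siglech, their defining receptor, was low in HSC and ProT (5.52 and 5.62).

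In ProT against HSC 7.85% of all genes were called higher and 6.90% lower, and all counts of this paragraph stand beside these shares. Macrophage and monocyte markers fell in ProT in 4 of 11 cases, among them Csf1r (-4.28 ± 0.20) and Cd14 (-3.62 ± 0.16). Adgre1, a surface receptor of macrophages, rose by 1.43 ± 0.31. The summed signal of that list was 4310 to 4723 in ProT and 10215 to 13500 in HSC. B cell markers gave 0 higher and 1 lower (Cd79b) of 11 in ProT by limma, the same counts as at an unadjusted p below 0.05. Their summed signal was 1760 to 2024 in ProT and 2391 to 2623 in HSC, and Cd79a and Ms4a1 averaged 4.96 and 4.40 in ProT. Thymic epithelial markers gave 1 higher of 10 in ProT, Ly75, with a summed signal of 1186 to 1195 in ProT and 1186 to 1205 in HSC. The innate lymphoid and NK list and the mast cell list had 6 of 9 and 5 of 9 members higher in ProT, and their part in the class II results was not tested. In the innate lymphoid and NK list, where Rora and Id2 were among those higher, 0 fell, and in the mast cell list Hdc (-3.03 ± 0.19) and Mitf (-1.04 ± 0.15) fell. Summed signals in ProT were 18245 to 19475 for the innate lymphoid and NK list and 17066 to 17568 for the mast cell list. In HSC they were 10145 to 11060 and 3074 to 3817.

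In DP the markers of other cell types differed from those in ProT. Of 10 thymic epithelial genes, 9 rose and 0 fell in DP against ProT (10 and 0 at an unadjusted p below 0.05), beside the background of 14.5%, with summed signals of 4900 to 5101 in DP and 1186 to 1195 in ProT. The chemokine gene Ccl25 rose 12.4-fold (3.63 ± 0.13, adjusted p = 2.08e-05), Prss16, a thymus protease, 6.03-fold, and the keratin gene Krt8 4.37-fold. Foxn1, the defining factor of this epithelium, averaged 6.37 in DP and 5.58 in ProT, low in both. Complement genes of macrophages rose as well, with C1qb at 9.47 in DP and 6.34 in ProT and C1qc at 8.22 in DP and 5.90 in ProT. In that list 6 of 11 rose and 2 fell, when 18.1% of all genes were called lower. The 2 were Adgre1, which fell at least 15.8-fold (-3.98 ± 0.31), and Cd68, which fell 2.74-fold (-1.46 ± 0.11). The summed signal of the list was 3522 to 3745 in DP and 4310 to 4723 in ProT.

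Of 11 B cell markers 8 rose and 0 fell in DP against ProT (9 and 0 at an unadjusted p below 0.05). In that comparison 14.5% of all genes were called higher and 18.1% lower, and all counts of this paragraph stand beside these shares. Among the 8 were Cd79a (6.89 in DP, 4.96 in ProT) and Ms4a1 (6.20 in DP, 4.40 in ProT), both low. The summed signal was 2748 to 2760 in DP and 1760 to 2024 in ProT, and 10 of the 11 had a low mean in DP. The other, Cd79b, was the largest term of these sums and averaged 10.89 in DP, 10.40 in ProT and 10.90 in HSC. Of 10 conventional dendritic cell markers 3 rose and 4 fell, with summed signals of 3385 to 3402 in DP and 3569 to 3706 in ProT. These sums were led by different genes. Ccr7, the largest term in DP, rose 4.43-fold (2.15 ± 0.10). Flt3, the largest term in ProT, fell 7.74-fold (-2.95 ± 0.30), and Itgax fell at least 5.15-fold. Siglech reached 6.66 in DP, still low. The class II signal of DP was thus measured beside thymic epithelial and complement transcripts that were lower in the cultured ProT cells, and their part in it was not tested.

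**Figure D5:**
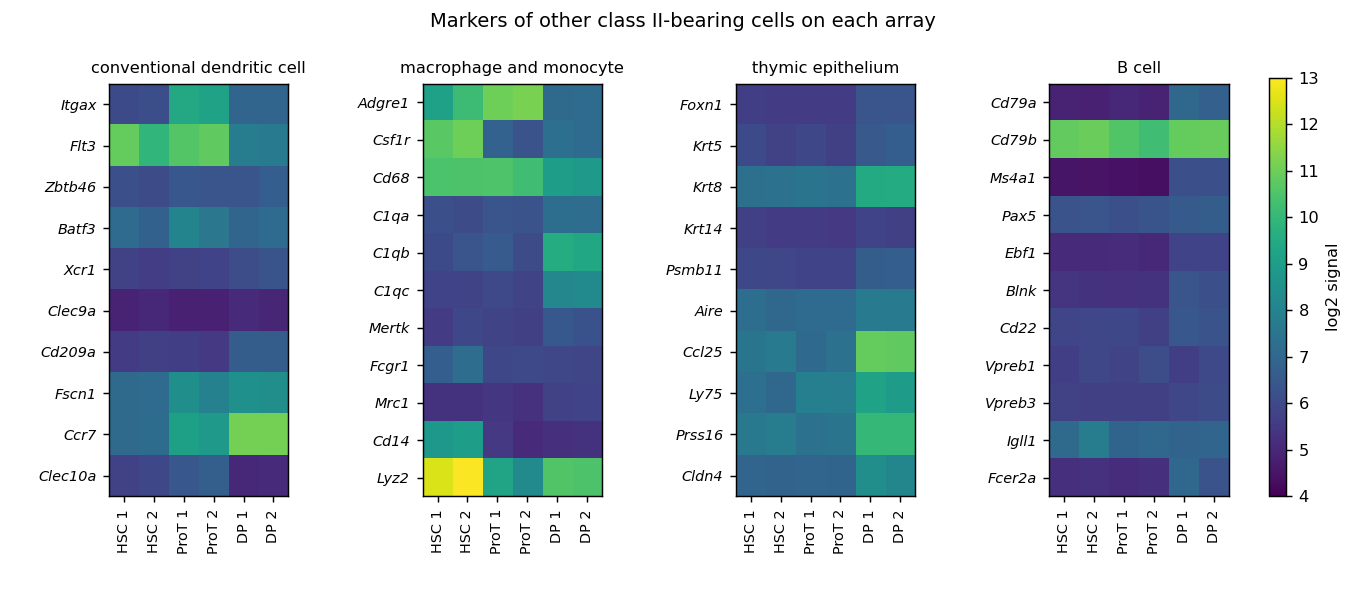
Log2 signal (colour) of markers of conventional dendritic cells, macrophages and monocytes, thymic epithelium and B cells (rows) on each of the 6 arrays (columns). Itgax is brightest on the ProT arrays, at a mean of 9.30, and Ccl25, Prss16, Krt8 and C1qb are brightest on the DP arrays, at means of 10.84, 9.99, 9.53 and 9.47.

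The genes whose course was most like that of the class II genes were sought among all 19938 by the distance between log2 values of the 6 arrays, each gene centred on its own mean. Nearest to H2-Aa were Gata3 (distance 0.53), Rras2 (0.66), Txk (0.67), Sytl3 (0.70) and Il7r (0.82), and of the class II set Cd74 was closest, as the 10th nearest gene (1.74). Gata3 averaged 6.08 in HSC, 11.96 in ProT and 11.23 in DP, beside 5.60, 11.17 and 10.64 for H2-Aa. Nearest to Cd74 were Rtn4rl1 (0.60), Timp2 (0.71), Igf2r (0.97), Dpp4 (1.01) and Agpat3 (1.02), and H2-Eb1 was the 24th (1.58). Nearest to Ciita were Sfxn3 (0.15), Ttpal (0.18), Adam19 (0.22), Pxdc1 (0.22) and Spock2 (0.24), genes with small changes like its own. The 6 arrays hold 3 populations, so many genes share such a course, and the distances are given as a description.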

How the data were processed

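Total RNA of 6 samples (2 each of HSC, ProT and DP) was labelled with biotin and hybridized to Affymetrix arrays, per the labels' protocols. The deposited table holds log2 signals of 35556 probe sets, and per the submitters' processing notes the authors used RMA and Partek, with versions and settings not given in the sources used here. GEO's platform annotation linked 21789 probe sets to 1 gene, 1621 to several and 12146 to none. Where a gene had several, the one of highest mean signal was kept.

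All 6 arrays were fitted with a mean per population in limma 3.58.1 (R 4.3.3) with eBayes (residual degrees of freedom 3, prior 2.83), two-sided, with Benjamini-Hochberg adjustment over 19938 genes. The fit was also run on simulated data with independent normal errors, which cannot show whether the spread between replicates is technical only. Tables and figures were made in Python 3.11.15. No detection calls were used, and the number of arrays limits the precision. The genes and lists were chosen with earlier results of these data known. Named were the 9 genes, the 5 nearest to each of 3 of them, and per list and comparison up to 4 called and 2 uncalled genes by size of change, with further genes such as the RFX subunits and marker genes chosen for their role after values were seen. List sums add linear signals. Alternatives were a replicate block, 3 normalizations, a filter on dim genes, other probe set rules, another prior, fits of 2 populations, a threshold of 0.01 and leaving out each array. Genes on probe sets assigned to several genes are not analysed here.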

Additional observations from a re-analysis of the deposited data

How the results depend on the processing

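Over 16 alternatives (15 for Ciita, which the filter on dim genes removed), the rises of H2-Aa, H2-Eb1 and Cd74 against HSC in both later populations, that of H2-Ab1 in ProT, and the falls of H2-DMa and H2-Ob in DP against ProT kept their direction and their side of the threshold. Not all of these were separate checks. Each measured gene had 1 probe set, so the other probe set rules left its values unchanged. Leaving out an array of the third population gave the same result as a fit of the 2 populations compared. Without an HSC array, the spread between the HSC arrays no longer enters the error of H2-Ab1. In ProT against HSC the count of genes higher was 4 to 6 when 1 array was left out. In DP against ProT the count lower was 6 with only those 2 populations in the fit, and 2 to 6 when 1 array was left out. In DP against HSC the count higher was 3 to 5 and the count lower 1 to 2 when 1 array was left out, and 1 was lower at an adjusted p below 0.01; without DP replicate 2, H2-Ab1 did not pass (adjusted p = 0.0517). Signs turned only where no call was made: H2-DMa in ProT against HSC was 0.01 after quantile normalization, 0.10 without HSC replicate 1 and 0.00 without ProT replicate 2 (range -0.15 to 0.10 when 1 array was left out), H2-Eb1 in DP against ProT was 0.01 without ProT replicate 1 or DP replicate 2 (range -0.29 to 0.01), and Ciita was 0.01 after median centring and 0.14 without ProT replicate 1. Without ProT replicate 2, Ciita passed as lower in DP (-0.36, adjusted p = 0.0412).

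With the replicate number as a block, 7 genes were higher in ProT than in HSC, 4 lower in DP than in ProT, and 5 higher and 2 lower in DP than in HSC. The block added H2-Ob in ProT against HSC and H2-Aa in DP against ProT (adjusted p = 0.0177) and changed no other call; both genes also passed there with the filter on dim genes. The labels do not say that the numbers pair arrays, and deviations of same-numbered arrays correlated at 0.058, -0.022 and -0.043.

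Counts over all genes moved more. In ProT against HSC they were 1565 higher and 1375 lower, and 1013 and 779 with only those populations. In DP against ProT, median centring, which removes a difference of -0.12 between the array medians, gave 4522 higher and 2987 lower (60.2% higher) in place of 2899 and 3607 (44.6%), and quantile normalization gave 54.4% higher. In ProT against HSC centring gave 42.0% higher in place of 53.2%. At an adjusted p below 0.01 there were 891 and 644 calls in ProT against HSC, 1645 and 2396 in DP against ProT, and 2060 higher in DP against HSC. Leaving out 1 array gave 779 to 1994 lower in ProT against HSC, 1467 to 3282 higher and 2047 to 4126 lower in DP against ProT, and 1940 to 3188 higher and 2361 to 3862 lower in DP against HSC. The causes were not tested.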
